A study of Mus musculus with 6 samples.

Results

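Keratins are the intermediate filament proteins of epithelial cells, and 9 of their genes are described here by the rows they occupy in the deposited expression tables. They were chosen by name, as the keratins used to tell the layers of the mammary duct apart: Krt5, Krt14, Krt15, Krt17 and Krt6a for the basal layer, and Krt7, Krt8, Krt18 and Krt19 for the luminal layer. They are 9 of the 54418 gene identifiers in the tables and 9 of 53 protein-coding keratin genes. All 9 had reads in every library.

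The RNA came from mammary glands of 4 week old C57BL/6 females, either Glis2+/+ (labelled WT) or Glis2-/- (labelled KO), with 3 libraries in each group and 1 mouse behind each. GLIS2 is a Krüppel-like zinc finger protein of the GLI-related family, and the question behind the comparison was what its loss does to the mammary epithelium. The glands were dissociated, stained for the lineage markers TER-119, CD31 and CD45 and for CD24 and CD49f, and sorted before RNA extraction. The sort gate is not given in the sources used here, so how far basal and luminal cells were both taken is known only from the transcripts. The mutation is carried by every cell of the animal, so differences in surrounding tissue are part of the comparison.

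A keratin filament is built from obligate pairs of one acidic (type I) and one basic (type II) chain. Basal epithelial cells, which lie on the basement membrane, use mainly KRT5 with KRT14, and simple and luminal epithelial cells use KRT8 with KRT18. KRT15 and KRT17 are further type I chains of basal cells, KRT6A is a type II chain known from stressed or wounded epithelium, KRT19 is a type I chain of luminal and other simple epithelia, and KRT7 is a type II chain of ductal epithelia. The ratio of KRT5 and KRT14 to KRT8 and KRT18 is therefore a common way to express how much of a mammary sample is basal.

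The genes lie in the keratin clusters of the mouse genome (GRCm38). The type I genes Krt15 (chr11:100131758-100135928), Krt19 (chr11:100140810-100148665), Krt14 (chr11:100203162-100207548) and Krt17 (chr11:100256217-100261029) are on chromosome 11. The type II genes Krt7 (chr15:101411043-101430313), Krt6a (chr15:101689910-101694307), Krt5 (chr15:101707070-101712898) and Krt8 (chr15:101996698-102004482) are on chromosome 15. Krt18 (chr15:102028180-102032027) is the type I exception, placed beside its partner Krt8.

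Members of the family share coding sequence, and a read of 40 bases within a shared stretch cannot be assigned by its own sequence alone. The reads were paired, so a mate outside the stretch can still place it. The shares given here do not take the mate into account. In the GENCODE M21 transcripts, the share of 40-base words also found in another gene was 48.6% for Krt6a, 29.1% for Krt8, 20.6% for Krt14, 9.87% for Krt5, 8.99% for Krt17 and at most 4.36% for Krt18, Krt15, Krt7 and Krt19. For Krt6a the main partner was Krt6b (43.1%), for Krt8 it was the processed pseudogene Krt8-ps (29.1%), and for Krt14 they were Krt16 (14.4%) and Krt17 (6.17%). The longest stretch common to the basal type I members Krt14 and Krt17 was 71 bases in exon 6 of both (Krt14 chr11:100204114-100204184, Krt17 chr11:100257439-100257509, minus strand). It is printed here as 1 place where reads of these genes can be exchanged, with capitals marking the shared bases and lower case the flanks.
Krt14: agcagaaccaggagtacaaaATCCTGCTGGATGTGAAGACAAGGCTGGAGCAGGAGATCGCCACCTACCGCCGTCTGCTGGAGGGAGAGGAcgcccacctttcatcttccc
Krt17: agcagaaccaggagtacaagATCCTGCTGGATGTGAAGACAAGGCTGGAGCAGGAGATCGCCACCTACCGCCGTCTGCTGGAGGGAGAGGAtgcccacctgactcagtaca

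Of the partners that are not among the 9 keratins, Krt8-ps, Krt16 and Krt6b received few estimated counts. Counts of Gm5478, which held 11.4% of the words of Krt6a, were not looked at. Krt8-ps held 600 to 930 counts, which was 1.47% to 2.06% of the counts of Krt8 and Krt8-ps together. Krt16 held 81 to 165 counts (0.43% to 1.16% of Krt14 plus Krt16). Of the partners counted, only Krt6b was large against its keratin in some libraries, with 2 to 65 counts or 0.573% to 16.2% of Krt6a plus Krt6b. The level of Krt6a is therefore the least certain of the 9.

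The libraries held 24996524 to 31393917 estimated counts. The targeted gene Glis2 had 671, 663 and 510 counts in the WT libraries and 252, 509 and 510 in the KO libraries. Scaled to library size (CPM), these were 21.7, 23.2 and 19.6 against 10.1, 17.0 and 16.3, and the groups did not overlap. Per transcript length (TPM) they were 2.82, 4.19 and 2.08 against 3.17, 2.75 and 2.75, and there the groups overlapped (means 3.03 and 2.89). The log2 fold change (KO over WT) was −0.57 ± 0.22 (SE), with an adjusted p of 0.906 by the quasi-likelihood test of edgeR. Glis2 reads remained in all 3 KO libraries, and whether they come from outside the mutated part of the gene cannot be read from gene counts. Across the 21236 genes tested, 0 (0%) passed both an adjusted p of 0.05 and a log2 difference of 0.58 or more in size, 1130 (5.32%) had an unadjusted p under 0.05, and 2491 (11.7%) had groups that did not overlap. DESeq2 called 45 of 23738 genes (0.19%), of which 36 were higher and 9 lower in KO, and gave 1521 genes an unadjusted p under 0.05.

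Against that background, no keratin of either layer passed the test in Glis2-/- cells. All 9 passed the filter on low counts, 7 were measured higher and 2 lower in KO on CPM, of which Krt5, Krt7, Krt8, Krt18 and Krt19 turned lower on log2 TPM, and the median log2 fold change on CPM was 0.09 against 0.011 over all genes tested. By edgeR, 0 of the 9 had an adjusted p of at most 0.05 and 0 had an unadjusted p under 0.05. By DESeq2, 0 of the 9 were called and 1, Krt14, had an unadjusted p under 0.05. The WT and KO libraries overlapped for all 9, so 0 of 9 stood apart where 11.7% of all genes did. In the 95% intervals of the fold changes, the lowest bound over the 9 was 0.536-fold and the highest was 1.93-fold. These are the extremes of the list, and each gene's own interval is given with its values.

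**Figure D1:**
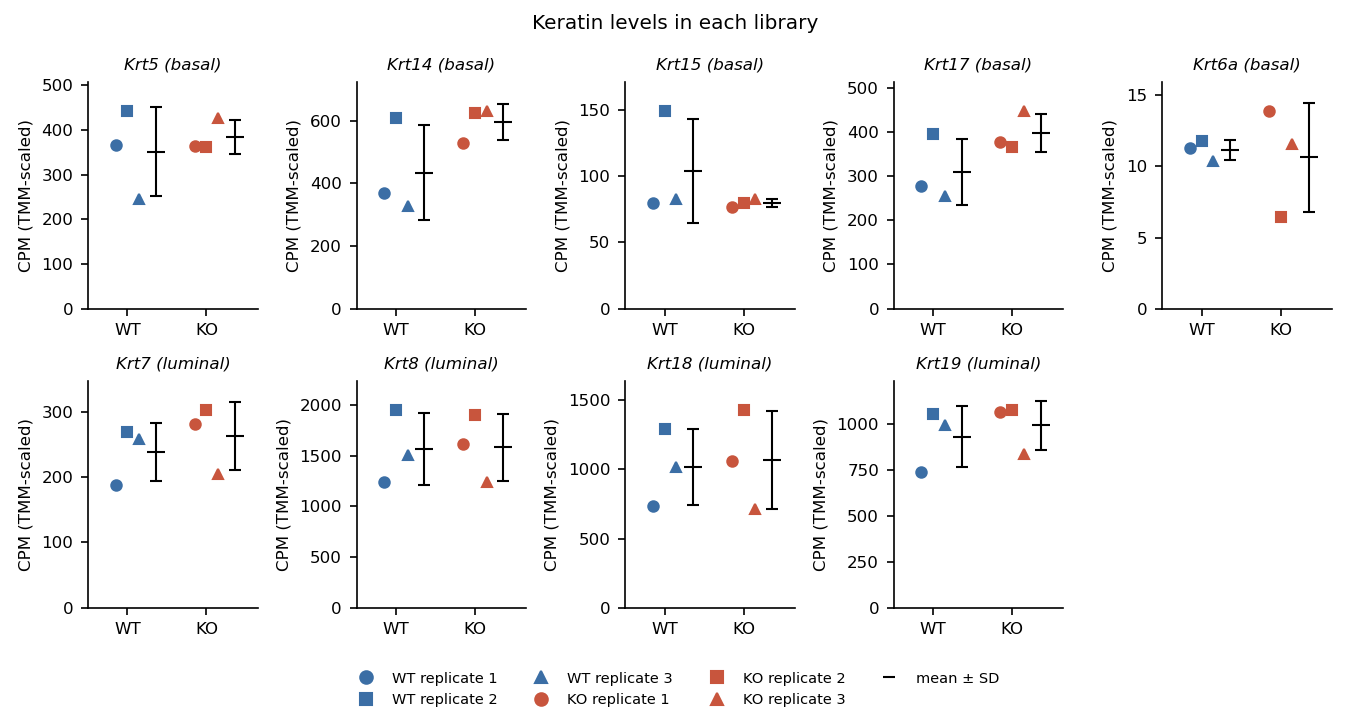
CPM of the 9 keratins in each library, with a separate linear axis for each gene, WT and KO libraries as points and the group means marked. The WT and KO points overlap for every gene, and Krt8 at 1238 to 1950 CPM and Krt6a at 6.44 to 13.9 CPM mark the ends of the range.

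Krt14, the type I chain of basal cells, had the largest positive difference of the 9. Its level was 368, 608 and 327 CPM in WT and 529, 626 and 631 CPM in KO (434 ± 152 against 595 ± 57.6, SD, n = 3 each). Of the WT libraries, only WT replicate 2 reached the KO range, and its value exceeded that of KO replicate 1. The log2 fold change was 0.45 ± 0.22 (SE; 95% interval −0.04 to 0.95), with an unadjusted p of 0.0657 and an adjusted p of 0.906 by edgeR. DESeq2 gave an unadjusted p of 0.0362 and an adjusted p of 0.8. Leaving out WT replicate 2 raised the log2 fold change to 0.78, with an adjusted p of 0.491 by edgeR, and leaving out WT replicate 3 lowered it to 0.29.

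Krt5 is the type II partner of Krt14 and differed less. It stood at 366, 442 and 245 CPM in WT and 363, 361 and 427 CPM in KO (351 ± 99 against 384 ± 37.7). WT replicate 2 was the highest of all 6 libraries and WT replicate 3 the lowest, so the KO values lay inside the WT range. Its log2 fold change was 0.13 ± 0.19 (95% interval −0.31 to 0.57; edgeR adjusted p = 0.974).

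Krt17, a type I chain that Krt14 resembles in sequence, was measured higher in KO on average. WT libraries held 278, 396 and 256 CPM and KO libraries 379, 367 and 448 CPM (310 ± 75.4 against 398 ± 43.7). As for Krt14, WT replicate 2 was the single WT library within the KO range. The log2 fold change was 0.36 ± 0.17 (95% interval −0.02 to 0.74), with an unadjusted p of 0.0624 and an adjusted p of 0.906 by edgeR. Without WT replicate 2 it was 0.58 and without WT replicate 3 it was 0.24.

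Krt15, the remaining type I basal chain, was one of the 2 members measured lower in KO. It stood at 79.7, 149 and 83.0 CPM in WT and 76.6, 79.9 and 82.7 CPM in KO (104 ± 39.2 against 79.7 ± 3.05). The WT mean was set by WT replicate 2, while the other WT libraries lay within or next to the narrow KO range. The log2 fold change was −0.38 ± 0.23 (95% interval −0.90 to 0.13; edgeR adjusted p = 0.932), and without WT replicate 2 it was −0.03.

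Krt6a, which is associated with stressed epithelium, was the weakest of the 9. It had 348, 336 and 270 counts in WT and 347, 193 and 362 in KO, or 11.3, 11.8 and 10.4 CPM against 13.9, 6.44 and 11.6 CPM. KO replicates 1 and 2 were the highest and lowest of all libraries. KO over WT on the log2 scale was −0.07 ± 0.29 (95% interval −0.72 to 0.59; edgeR adjusted p = 0.99).

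Among the luminal keratins, Krt8 had the smallest difference between the groups. The type II chain of simple epithelia stood at 1239, 1950 and 1508 CPM in WT and 1612, 1899 and 1238 CPM in KO (1566 ± 359 against 1583 ± 331). One library of each group, WT replicate 1 and KO replicate 3, was low, and WT replicate 2 and KO replicate 2 were high. KO over WT on the log2 scale was 0.02 ± 0.19 (95% interval −0.42 to 0.45; edgeR adjusted p = 0.998).

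Its partner Krt18 had the same libraries at its ends. It stood at 738, 1290 and 1019 CPM in WT and 1064, 1429 and 717 CPM in KO (1015 ± 276 against 1070 ± 356). WT replicate 1 and KO replicate 3 were again lowest. Its log2 fold change was 0.08 ± 0.26 (95% interval −0.52 to 0.67; edgeR adjusted p = 0.985).

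Krt19, a type I chain without a tail domain, stood at 741, 1053 and 997 CPM in WT and 1065, 1076 and 839 CPM in KO. Its log2 fold change was 0.09 ± 0.15 (95% interval −0.25 to 0.44; edgeR adjusted p = 0.976). Krt7, a type II chain of ductal epithelium, stood at 188, 269 and 258 CPM in WT and 281, 302 and 204 CPM in KO. Its log2 fold change was 0.14 ± 0.18 (95% interval −0.27 to 0.55; edgeR adjusted p = 0.972). Both genes were lowest in WT replicate 1 and next lowest in KO replicate 3, and neither separated the groups.

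**Figure D2:**
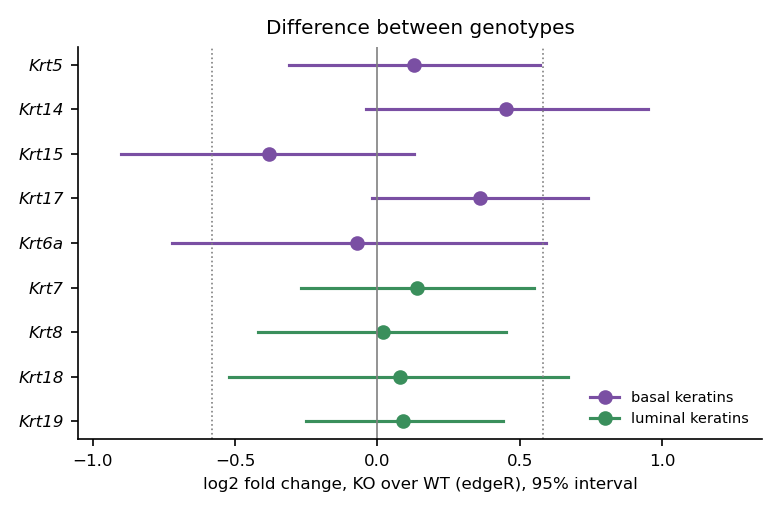
Log2 fold change (KO over WT) of each keratin with its 95% interval from edgeR. All 9 intervals include 0, with Krt14 at 0.45 and Krt17 at 0.36 highest and Krt15 at −0.38 lowest.

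The spread between libraries was below the median over all genes tested for each of the 9. The biological coefficient of variation of the 9 keratins ran from 16.1% to 27.6% with a median of 19.0%, against a median of 29.8% over all genes. Krt19 varied least and Krt6a most. Between the highest and lowest of the 6 libraries, Krt6a differed 2.15-fold, Krt18 1.99-fold, Krt15 1.95-fold and Krt14 1.93-fold, and Krt19 the least, 1.45-fold.

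Levels of different genes were compared as TPM, which divides by transcript length before scaling to the library. A single non-coding gene, Gm23935, took 83.0% to 85.66% of all TPM, so the keratin TPM values are low in absolute terms while ratios within a library are unaffected. Ordered by mean TPM over the 6 libraries, Krt19 (237) came first, then Krt8 (192), Krt18 (180), Krt14 (77.6), Krt17 (55.5), Krt5 (39.1), Krt7 (31.4), Krt15 (15.6) and Krt6a (1.13). Krt8 and Krt18 were not separated, with a log2 ratio of 0.11 ± 0.14 (SD over libraries) and Krt8 higher in 5 of 6. Krt5 and Krt7 were not separated either (0.32 ± 0.46, Krt5 higher in 5 of 6). Every other neighbour in the order kept its place in 6 of 6 libraries.

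The luminal keratins thus carried most of the keratin RNA. In Glis2+/+ libraries Krt19 made up 28.8% ± 3.0 (SD, n = 3) of the TPM of the 9 genes, Krt8 23.9% ± 0.446, Krt18 21.9% ± 1.78 and Krt14 8.29% ± 1.7. In Glis2-/- libraries the shares were 28.6% ± 1.45, 22.1% ± 1.49, 20.9% ± 4.05 and 10.6% ± 1.91. The 5 basal keratins together held 24.2%, 23.6% and 16.9% in WT and 22.4%, 20.9% and 30.8% in KO, with KO replicate 3 the most basal library and WT replicate 3 the least. The 9 genes held 97.55% to 99.03% of the TPM of all keratins, and 0.408% to 0.616% of all counts.

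The basal to luminal ratio (Krt5 plus Krt14 over Krt8 plus Krt18, in TPM) was 0.349, 0.304 and 0.209 in WT and 0.319, 0.282 and 0.512 in KO. The group means were 0.287 ± 0.0715 and 0.371 ± 0.124 (SD, n = 3 each). On the log2 scale, KO minus WT was 0.35 ± 0.34 (SE), about as large as its error. The groups overlapped, since KO replicates 1 and 2 lay inside the WT range and only KO replicate 3 lay above it. In TPM, KO replicate 3 had the lowest Krt18 (112) and Krt8 (137) of the 6 libraries. Its Krt14 in TPM (86.0) was below that of WT replicate 2 (98.4). In CPM, KO replicate 3 again had the lowest Krt18 (717), and its Krt8 (1238) was level with WT replicate 1 (1239). Its Krt14 in CPM (631) was the highest, beside 626 in KO replicate 2 and 608 in WT replicate 2.

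The difference in this ratio rested on single libraries. Without KO replicate 3 it was 0.09 on the log2 scale and without WT replicate 3 it was 0.14, whereas without WT replicate 1 it was 0.51 and without KO replicate 2 it was 0.53. With all 5 basal over all 4 luminal keratins, the ratios were 0.32, 0.308 and 0.203 in WT and 0.288, 0.264 and 0.445 in KO, and the log2 difference was 0.25 ± 0.31. The type I pair alone, Krt14 over Krt18, gave 0.453, 0.415 and 0.277 against 0.447, 0.388 and 0.766, a log2 difference of 0.45 ± 0.37. For the type II pair, Krt5 over Krt8, the log2 difference was 0.15 ± 0.36. In each of these forms KO replicate 3 was the highest library.

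**Figure D3:**
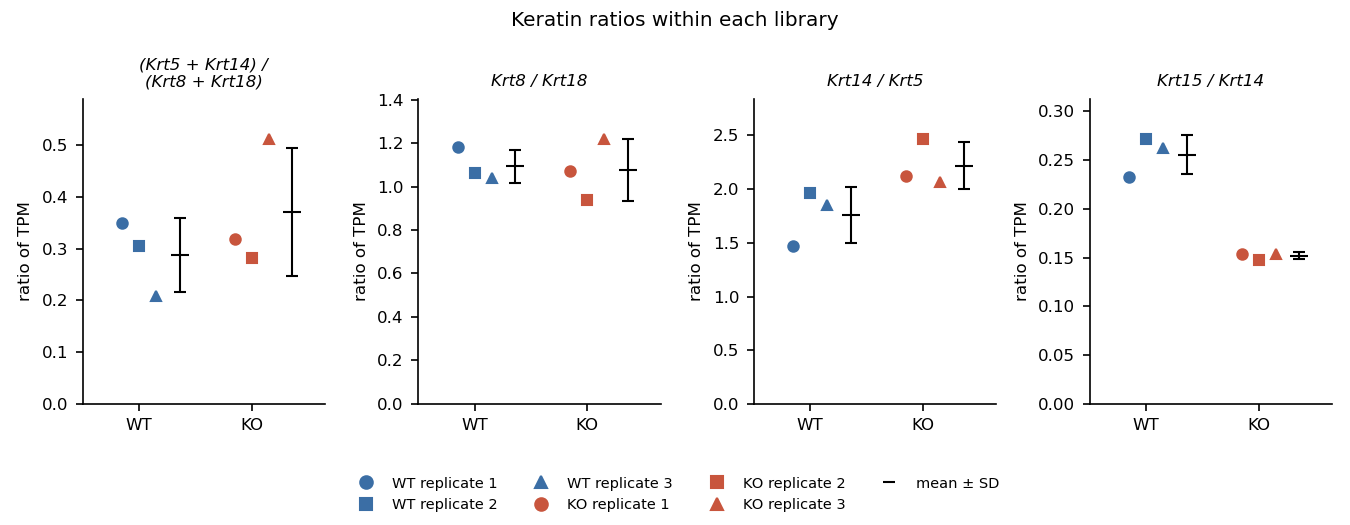
Ratios of keratin TPM in each library (points) with group means. For Krt5 plus Krt14 over Krt8 plus Krt18, KO replicate 3 at 0.512 stands above the other libraries, which lie between 0.209 and 0.349, whereas for Krt15 over Krt14 the WT libraries (0.233 to 0.272) lie above the KO libraries (0.148 to 0.154).

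Ratios within the basal layer set its keratins against each other. Krt15 over Krt14 was 0.233, 0.272 and 0.262 in WT and 0.154, 0.148 and 0.154 in KO (0.256 ± 0.0206 against 0.152 ± 0.00336, SD, n = 3 each). The groups did not overlap, and the log2 difference was −0.74 ± 0.07 (SE). In counts the ratio was 0.217, 0.245 and 0.254 against 0.145, 0.128 and 0.131, a log2 difference of −0.83, and leaving out any 1 library in TPM gave −0.81 to −0.70. Relative to Krt14, then, Krt15 was lower in every KO library than in any WT library, although neither gene passed the test on its own. This ratio was picked out after its values were seen and is given with no test.

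Krt14 over Krt5, the basal pair, was 1.47, 1.96 and 1.85 in WT and 2.12, 2.47 and 2.07 in KO (1.76 ± 0.256 against 2.22 ± 0.221), with a log2 difference of 0.34 ± 0.15 and no overlap. Without WT replicate 1 the difference was 0.22. In counts it was 1.01, 1.38 and 1.33 against 1.46, 1.73 and 1.48. The sum of the type I over the sum of the type II members was also higher in each KO library, at 1.95, 2.08 and 2.14 against 2.2, 2.21 and 2.32, a log2 difference of 0.13 ± 0.05. These were the 3 of 10 further ratios without overlap between groups, and all 3 hold Krt14. For single genes the share without overlap was 11.7%. Krt14 is also the member with 20.6% of its 40-base words in other genes against 1.91% for Krt15, and the part of such reads in these ratios was not tested.

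Ratios among the other members did not separate the groups. Krt17 over Krt14 differed by −0.13 ± 0.13 and Krt17 over Krt5 by 0.22 ± 0.13 on the log2 scale. Krt15 over Krt5 was 0.342, 0.533 and 0.486 in WT and 0.326, 0.367 and 0.32 in KO, where KO replicate 2 exceeded WT replicate 1. Krt8 over Krt18, the luminal pair, was 1.1 ± 0.0763 in WT and 1.07 ± 0.14 in KO (SD, n = 3 each).

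Krt8 and Krt18, which encode partner chains, rose and fell together over the 6 libraries. Pearson's r of their log2 CPM was 0.98 (exact permutation p = 0.00833, adjusted over 3 pairs 0.025) and Spearman's rho was 0.94 (exact permutation p = 0.0167, adjusted 0.0501). Without WT replicate 1 and KO replicate 3, the libraries farthest from the median, r was 0.93. For the basal pair Krt5 and Krt14, r was 0.79 (exact permutation p = 0.0917, adjusted 0.138) and rho was 0.49 (exact permutation p = 0.356, adjusted 0.534), and r was 0.42 without WT replicates 2 and 3. Between the layers, Krt14 and Krt18 had an r of 0.35 (exact permutation p = 0.475) and a rho of 0.09 (exact permutation p = 0.919), and r was −0.06 without WT replicates 1 and 3. Whether the r of the basal pair and that of the luminal pair differ was not tested.

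Other genes followed the library patterns of Krt8 and Krt14, the members looked at in this way. Of 770 candidate genes, the closest to Krt8 in log2 CPM were Cadps2 (r = 0.997), Celsr2 (0.997) and Coro2a (0.994), and the closest to Krt14 were Fhod3 (0.962), Mir6240 (0.959) and Scube3 (0.954). These r values cover 6 libraries, were picked as the highest among many, and carry no p.

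The keratins were set beside other markers of the same layers, some of which (Trp63, Elf5, Gata3 and Foxa1) are also regulators of keratin genes. The 12 basal markers, among them the smooth muscle genes Acta2 and Myh11 and the transcription factor Trp63, summed to 5475, 4579 and 4350 CPM in WT and 5898, 5485 and 6697 CPM in KO. The 16 luminal markers, among them Epcam, Prlr and Kit, summed to 2351, 4059 and 3746 CPM against 3823, 4446 and 2210 CPM. The luminal keratins (2905, 4562 and 3782 against 4023, 4706 and 2998 CPM) were lowest in the same 2 libraries as the luminal markers, WT replicate 1 and KO replicate 3. The basal keratins (1103, 1607 and 922 against 1361, 1441 and 1601 CPM) did not share the order of the basal markers, as WT replicate 2 was highest for the first and next to lowest for the second. In bulk RNA, fewer cells of a type and less RNA per cell cannot be told apart.

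Per unit of marker RNA, the keratins of both layers overlapped between the groups. Luminal keratins over luminal markers (TPM) ran from 1.45 to 1.71 in WT and from 1.52 to 1.87 in KO. Basal keratins over basal markers were 0.345, 0.609 and 0.358 in WT and 0.378, 0.453 and 0.393 in KO. The ratio of basal to luminal markers was 1.58, 0.8 and 0.825 against 1.17, 0.886 and 2.12, highest in KO replicate 3 and then WT replicate 1. Both libraries also had the most endothelial marker RNA (765 and 753 CPM). The part of other cell types in the basal markers was not tested. KO replicate 3 and WT replicate 1 held the same places by the keratin ratio, at 0.512 and 0.349. There WT replicate 1 was close to KO replicate 1 at 0.319.

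**Figure D4:**
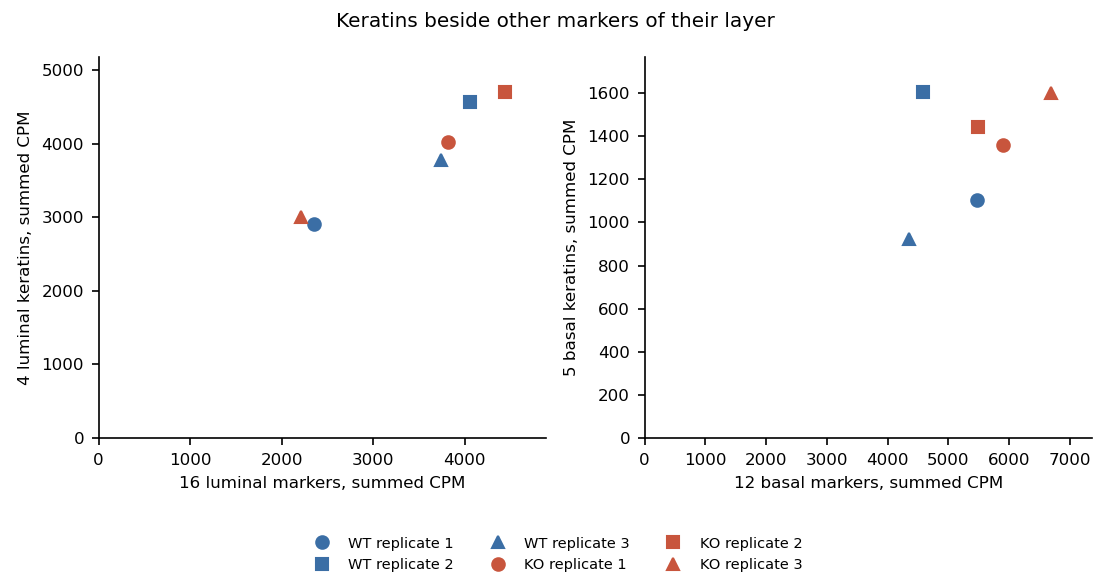
Summed CPM of the luminal keratins against the 16 luminal markers, and of the basal keratins against the 12 basal markers, in each library. WT replicate 1 and KO replicate 3 are lowest in luminal keratins (2905 and 2998 CPM) and in luminal markers (2351 and 2210 CPM).

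On CPM, endothelial and fibroblast markers were lowest in the libraries with most luminal keratin RNA. In TPM, the luminal keratins of KO replicate 2 (687) lay below those of WT replicate 2 (789), WT replicate 3 (729) and KO replicate 1 (702). The stain covered CD31, the product of the endothelial gene Pecam1. Endothelial markers, the 7 genes from Pecam1 to Cldn5, summed to 753, 161 and 578 CPM in WT and 480, 230 and 765 CPM in KO, highest where the luminal keratins were lowest. Fibroblast markers, 8 genes including Col1a1 and Col3a1, summed to 7856, 2454 and 8252 CPM against 4509, 2734 and 6238 CPM and were lowest in WT replicate 2 and KO replicate 2, where luminal keratins were highest. Adipocyte markers summed to 309, 52.3 and 208 against 162, 94.8 and 264 CPM, of which Fabp4, named after its values were seen, made up 294, 46.3 and 188 against 157, 89.0 and 256 CPM. With the fibroblast level as a covariate, edgeR called 0 keratins and put Krt8 at −0.06 and Krt18 at −0.05 on the log2 scale. In the same fit Krt14 stood at 0.43, Krt15 at −0.41 and Krt17 at 0.34, with unadjusted p of 0.00702, 0.0148 and 0.0293 and adjusted p of 0.387, 0.454 and 0.529 by edgeR. The part of the other cell types in the keratin values was not tested. Skeletal muscle markers stood at 5.81 to 43.4 CPM in WT and at 10.4, 12 and 10.0 CPM in KO.

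Immune markers summed to 62.5, 30.5 and 46.4 CPM in WT and 70.2, 78.7 and 135 CPM in KO, and these sums did not overlap. Of these 8 genes, 7 were measured higher in KO, 4 of them with an unadjusted p under 0.05 and without overlap on CPM. By edgeR 0 were called (median log2 fold change 1.21). The shares over all genes were 5.32% and 11.7%. DESeq2 gave an adjusted p of 0.0383 for Cd74 (1.24 on the log2 scale), named after its values were seen, and 0.0771 for Laptm5. Epidermal keratinocyte markers, which would mark skin, summed to 5.19, 10.1 and 10.3 CPM against 11.6, 10.4 and 8.98 CPM, far below the basal keratins.

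Across the marker lists, edgeR called 0 genes. Of the basal markers, 9 of 12 were measured higher, 6 of them with an unadjusted p under 0.05 (5.32% of all genes), and the median log2 fold change was 0.28 against 0.011 over all genes. Of the 12, 4 had groups without overlap on CPM (11.7% of all genes). Of these, only Itgb4 was lower in KO (−0.19), a gene named after its values were seen. The contractile genes Tagln (0.59 ± 0.11, edgeR adjusted p = 0.849) and Cnn1 (0.60 ± 0.13, edgeR adjusted p = 0.849) had the smallest p of that list. DESeq2 gave them adjusted p of 0.0267 and 0.0557, so Tagln passed 0.05 by DESeq2 and not by edgeR. In TPM the groups overlapped for Tagln and Cnn1, with KO replicate 2 (61.4 and 32.3) inside the WT range. Itgb4 and Oxtr, the latter named after its values were seen, stayed apart in TPM as well. The luminal markers had 10 of 16 higher and 6 lower with a median of 0.08, where Aldh1a3 stood at −0.60 and Gata3 at 0.26. Fibroblast markers had 1 of 8 higher (median −0.39), endothelial markers 3 of 7 (median −0.14), adipocyte markers 1 of 5 tested (median −0.10), skeletal muscle markers 1 of 5 tested (median −1.15) and epidermal markers 3 of 4 tested (median 0.15). The median of the basal keratins was 0.13 and that of the luminal keratins 0.09 on the same scale.

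Regulators known to act on keratin genes were described next. All 10 were tested, 7 were measured higher and 3 lower in KO, with 0 called by edgeR and 3 with an unadjusted p under 0.05 (2 higher and 1 lower), against 5.32% of all genes. One of the 3, Trp63, is also among the 6 basal markers counted above. Trp63, the transcription factor that activates Krt5 and Krt14 in basal cells, stood at 185, 121 and 129 CPM in WT and 204, 166 and 274 CPM in KO. Its log2 fold change was 0.56 ± 0.22 with an edgeR adjusted p of 0.906, and KO replicate 3, the library with the highest keratin ratio, was also its highest. Tfap2c, an AP-2 family factor, stood at 119, 124 and 99.5 against 133, 148 and 151 CPM without overlap (0.34 ± 0.12), where 11.7% of all genes did not overlap. The lower gene, Klf5 (−0.39 ± 0.17), was named after its values were seen.

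Genes of proteins that anchor or bind keratin filaments, many of them at desmosomes and hemidesmosomes, were all tested. Of 12 genes, 7 were measured higher and 5 lower, 0 were called by edgeR, 1 had an unadjusted p under 0.05 (5.32% of all genes), and the median log2 fold change was 0.05. That gene was Dst, whose epithelial form links KRT5 and KRT14 filaments to the hemidesmosome, at 2729, 2499 and 2914 CPM in WT and 3187, 3171 and 3112 CPM in KO (0.22 ± 0.08), without overlap between the groups, which held for 11.7% of all genes. In TPM (58.7, 60.0 and 68.8 against 70.8, 63.8 and 63.7) the groups overlapped. Tchp, which binds keratin filaments, stood at 0.26 and the plakophilin gene Pkp3 at 0.19 on the log2 scale.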

How the data were processed

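Sorted mammary cells from 3 WT and 3 KO mice were sequenced as stranded total RNA with paired reads. The authors quantified reads with Salmon 1.2.1 against mm10 transcripts and deposited estimated counts per gene, held as whole numbers, and log2 values of TPM plus 1, which were converted back to TPM. All 6 columns of each table were used, and 0 columns of per-sample values were set aside. Identifiers were matched to GENCODE M21 (54166 of 54418, GRCm38), which also gave the transcript sequences.

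Counts were tested with the quasi-likelihood test of edgeR 4.0.16 (R 4.3.3, TMM scaling, low counts filtered by filterByExpr), KO against WT, with Benjamini-Hochberg adjustment over all 21236 genes. Calls needed an adjusted p no higher than 0.05 together with a log2 difference of 0.58 or more in size. The SE of a log2 fold change is its size divided by the root of the F statistic. DESeq2 1.42.0 with apeglm 1.24.0, limma 3.58.1 on log2 TPM, DESeq2 size factors in edgeR, protein-coding genes only, no filter, a minimum of 10 counts in every library, a fibroblast covariate, a replicate block and leaving out each library were alternatives. The fit was tested on simulated data. CPM are TMM scaled, and ratios are from TPM with the SE of a difference of group means. Correlations across libraries used 2-sided exact permutation tests over 3 gene pairs.

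The keratins, the other gene lists and the tests were chosen with earlier results of these data known. Named genes are the 9 keratins, Glis2, Trp63, Krt6b, and from each other list the genes called or, failing that, the 2 tested genes with the smallest p (3 for other keratins and for anchoring partners). The likeness candidates had a mean log2 CPM of at least 5 and an SD of at least 0.3. The smallest adjusted p over all genes was 0.392. The estimated counts carry assignment error for genes that share sequence.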

Additional observations from a re-analysis of the deposited data

How the results depend on the processing

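No keratin was called under any of the 15 alternative settings, which gave 135 estimates for the 9 genes. The smallest adjusted p was 0.387, by edgeR with the fibroblast covariate. Of these estimates, 23 had the other direction. Over all genes, where edgeR called 0, DESeq2 with apeglm called 45, edgeR without the filter 40, limma on log2 TPM with a pseudocount of 0.1 called 2, and edgeR with a fibroblast covariate 5. DESeq2 with apeglm shrank the log2 fold changes of all 9 keratins to about 0.

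Directions turned for genes near 0. Requiring at least 10 counts in every library gave Krt8 −0.002. On log2 TPM with a pseudocount of 1, limma gave −0.013 for Krt5, −0.052 for Krt7, −0.158 for Krt8, −0.121 for Krt18 and −0.044 for Krt19, and with a pseudocount of 0.1 −0.012, −0.054, −0.159, −0.122 and −0.044. TPM scaling put the median of 5660 well expressed genes at −0.151 and −0.172, so relative to it all 5 were near 0 or above. The fibroblast covariate gave −0.064 for Krt8 and −0.05 for Krt18. Leaving out 1 library gave −0.074 to 0.329 for Krt5, 0.286 to 0.779 for Krt14, −0.56 to −0.028 for Krt15, 0.24 to 0.577 for Krt17, −0.306 to 0.184 for Krt6a, −0.024 to 0.275 for Krt7, −0.147 to 0.206 for Krt8, −0.199 to 0.286 for Krt18 and −0.065 to 0.194 for Krt19.

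The log2 difference of the basal to luminal ratio was 0.35 in TPM, 0.32 in counts and 0.30 as a mean of logs, and 0.09 to 0.53 when 1 library was left out. With a replicate block it was 0.35 ± 0.47 (SE), from pairs of −0.13, −0.11 and 1.3. Libraries with the same number did not deviate together (r = −0.02, 0.13 and 0.01), so the numbers do not pair the mice. The counts and left-out libraries for Krt15 over Krt14 and Krt14 over Krt5 were added after seeing the data, and leaving out 1 library gave 0.22 to 0.42 for the latter. The estimates for Krt6a rest on 193 to 362 counts and shared sequence with Krt6b.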

Other observations

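Other keratins held little of the keratin RNA, although Krt23, named after its values were seen, stood at 30.6 to 54.2 CPM, above Krt6a in every library. Of 18 further keratins of simple and stratified epithelia, 10 were tested, 4 were measured higher and 6 lower in KO, 0 were called by edgeR and 1 had an unadjusted p under 0.05, against 5.32% of all genes (median log2 fold change −0.30). That gene was Krt4, a type II keratin of non-cornified stratified epithelium, at 7.49, 22.6 and 13.1 CPM in WT and 7.03, 8.18 and 3.71 CPM in KO (−1.19 ± 0.43, SE; edgeR adjusted p = 0.906). WT replicate 1 lay within the KO range. Krt10, a type I keratin of suprabasal epidermis, stood at 0.713, 1.61 and 1.19 against 2.84, 2.07 and 2.2 CPM without overlap, which held for 11.7% of all genes, but its groups overlapped in TPM (0.143, 0.385 and 0.732 against 0.423, 0.535 and 0.426). Krt75 had 4, 14 and 3 counts in WT and 9, 4 and 137 in KO, so KO replicate 3 alone set its difference. Krt6b had 4, 65 and 51 counts against 2, 16 and 16 (−1.93 ± 1.06).

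Intermediate filament genes outside the keratin family were measured in the same libraries. Of 14, 11 were tested, with 2 higher, 9 lower and 0 called by edgeR (median −0.32). Synm, the large filament protein synemin of muscle and basal cells, stood at 69.0, 53.0 and 43.0 CPM in WT and 73.1, 81.3 and 78.4 CPM in KO without overlap (0.50 ± 0.17), and was the only one of the 11 with an unadjusted p under 0.05. The shares over all genes were 11.7% and 5.32%. Lmnb2, a nuclear lamin, stood at −0.31. Among the smallest p of the remaining lists, log2 fold changes were −0.72 for Col6a3, −0.53 for Col1a1, −0.41 for Cldn5, 0.29 for Pecam1, 1.38 for Laptm5, 2.08 for Cd79a, −1.37 for Plin1, −2.16 for Adipoq, −1.87 for Myh4, −1.61 for Ckm and 0.28 for Flg.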
